A study of Mus musculus with 9 samples.

Results

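The mitochondrial protein import machinery was examined in the hearts of 9 adult mice. The genes were chosen by name, as every gene of the count table whose symbol begins with Timm or Tomm, together with Pam16, Dnajc19, Grpel1, Grpel2, Samm50, Mtx1, Mtx2, Pmpca, Pmpcb and Mipep. This gave 35 of 23457 genes, of which 12 were counted at the outer membrane, 7 in the intermembrane space, 12 at the inner membrane, 3 in the matrix and 1 (Tomm34) in the cytosol. The 5 genes of the import motor were all counted at the inner membrane, although Grpel1 and Grpel2 encode soluble matrix proteins. The 3 genes counted in the matrix are the peptidase genes Pmpca, Pmpcb and Mipep. All mice were adults on a C57BL/6J background, 5 of them wild type (WT) and 4 labelled as germline Parkin knockouts (KO), and each library came from 1 heart. Parkin is a ubiquitin ligase that PINK1 activates on mitochondria whose import has failed. In the study these hearts stood beside work on Drosophila, and the genotypes are compared here for the import genes. Polyadenylated RNA came from the ventricular apex, although the tissue is labelled as whole heart. Every direction below rests on the genotype labels.

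Nearly all mitochondrial proteins are made in the cytosol and enter through the TOM complex, a pore in the outer membrane with receptors on its cytosolic face. From there the SAM complex folds barrel proteins into the outer membrane, small TIM chaperones carry hydrophobic proteins across the intermembrane space, and the TIM22 and TIM23 complexes insert or pass proteins at the inner membrane. A motor built on mitochondrial Hsp70 pulls proteins into the matrix, where peptidases remove the targeting sequence. Heart muscle is rich in mitochondria and depends on this supply.

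Between 4415183 and 20827699 reads were assigned to genes per heart, and 2774 to 26162 of them fell on the import genes. WT hearts 2 and 3 were the shallowest. Reads of the mitochondrial genome took 32.6% to 58.2% of assigned reads in WT and 10.04% to 15.4% in KO hearts. Fold changes followed transcript GC content across the 12542 genes with a GC value (Spearman rho 0.61, across genes, which are not independent replicates), and across the 33 import genes tested the rho was 0.43. The import genes are therefore given as fitted by edgeR and again with each heart's trends in GC content and transcript length removed, called the corrected fit below. That correction brought the rho to 0.012 over all genes and -0.17 over the import genes. It also removes any true difference that follows GC content or length. Cardiomyocyte markers summed to 64419 to 71345 CPM (read counts relative to the scaled library size) in WT and 82345 to 93416 in KO hearts. Myh6 held the largest part of that sum, with a mean of 28586 CPM in WT and 41898 in KO hearts. It was not called in the corrected fit (0.11, adjusted p = 0.507). Of the 10 markers 4 rose while 1 fell (2 and 1 in the corrected fit). Among markers of other cells, 3 of 8 rose and 3 fell for fibroblasts, 2 of 7 and 2 for endothelium, 2 of 6 and 1 for mural cells, and 3 of 6 and 2 for macrophages. In the corrected fit 1 rose and 2 fell for fibroblasts, 1 and 1 for endothelium, 1 and 0 for mural cells, and 0 and 2 for macrophages. Over all genes tested, edgeR called 26.2% higher and 25.2% lower (adjusted p under 0.05), and 18.7% and 19.4% in the corrected fit. The summed CPM of these lists overlapped between the groups, at 552 to 717 in WT and 591 to 1052 in KO for fibroblasts, 705 to 871 and 627 to 747 for endothelium, 527 to 742 and 671 to 907 for mural cells, and 115 to 155 and 129 to 172 for macrophages. The erythroid genes Hba-a1 and Hbb-b1 had no reads. In these bulk samples a change in the number of cells of a type and a change in RNA per cell cannot be told apart, and the part of cell makeup in the results below was not tested.

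Of the 33 import genes tested, 17 were higher and 5 lower in KO hearts (edgeR, adjusted p under 0.05). Over all 12640 genes tested, 51.4% passed this threshold, 26.2% as higher and 25.2% as lower. The median log2 fold change of KO over WT was 0.40 for the import genes and -0.01 for all genes. In the corrected fit 15 were higher and 4 lower, where 38.1% of all genes passed (18.7% higher, 19.4% lower), and the median was 0.27. In CPM the groups did not overlap for 14 that were higher and 4 that were lower in KO hearts, where the shares over all genes were 22.3% and 19.3%. Both fits called 13 of them higher and 3 lower, and the share of all genes called alike by both was 26.8%. Timm8a2 and Tomm20l had 0 or 1 read in each heart and were not tested.

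Taken by compartment, 5 of 6 tested genes in the intermembrane space rose and none fell, with a median log2 fold change of 0.96 (0.93 corrected). At the outer membrane 6 of 11 rose and 2 fell, with a median of 0.40 (0.24 corrected). At the inner membrane 6 of 12 rose and 1 fell, with a median of 0.33 (0.29 corrected). Of the 3 peptidase genes counted in the matrix 2 fell and none rose, with a median of -0.44 (-0.31 corrected). The matrix proteins Grpel1 (0.58, corrected 0.85) and Grpel2 (0.23, corrected 0.59) are in the inner membrane count, so these values do not describe the whole matrix. These medians were not tested against each other, because the genes were chosen with earlier results of these hearts known. In the corrected fit 5 genes rose and 0 fell in the intermembrane space, and 5 and 2 at the outer membrane. At the inner membrane 5 rose and 1 fell, and 3 and 1 were called alike in both fits. Of the matrix peptidase genes 0 rose and 1 fell. Over all genes tested 26.2% were higher and 25.2% lower by edgeR, and 18.7% and 19.4% in the corrected fit.

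**Figure D1:**
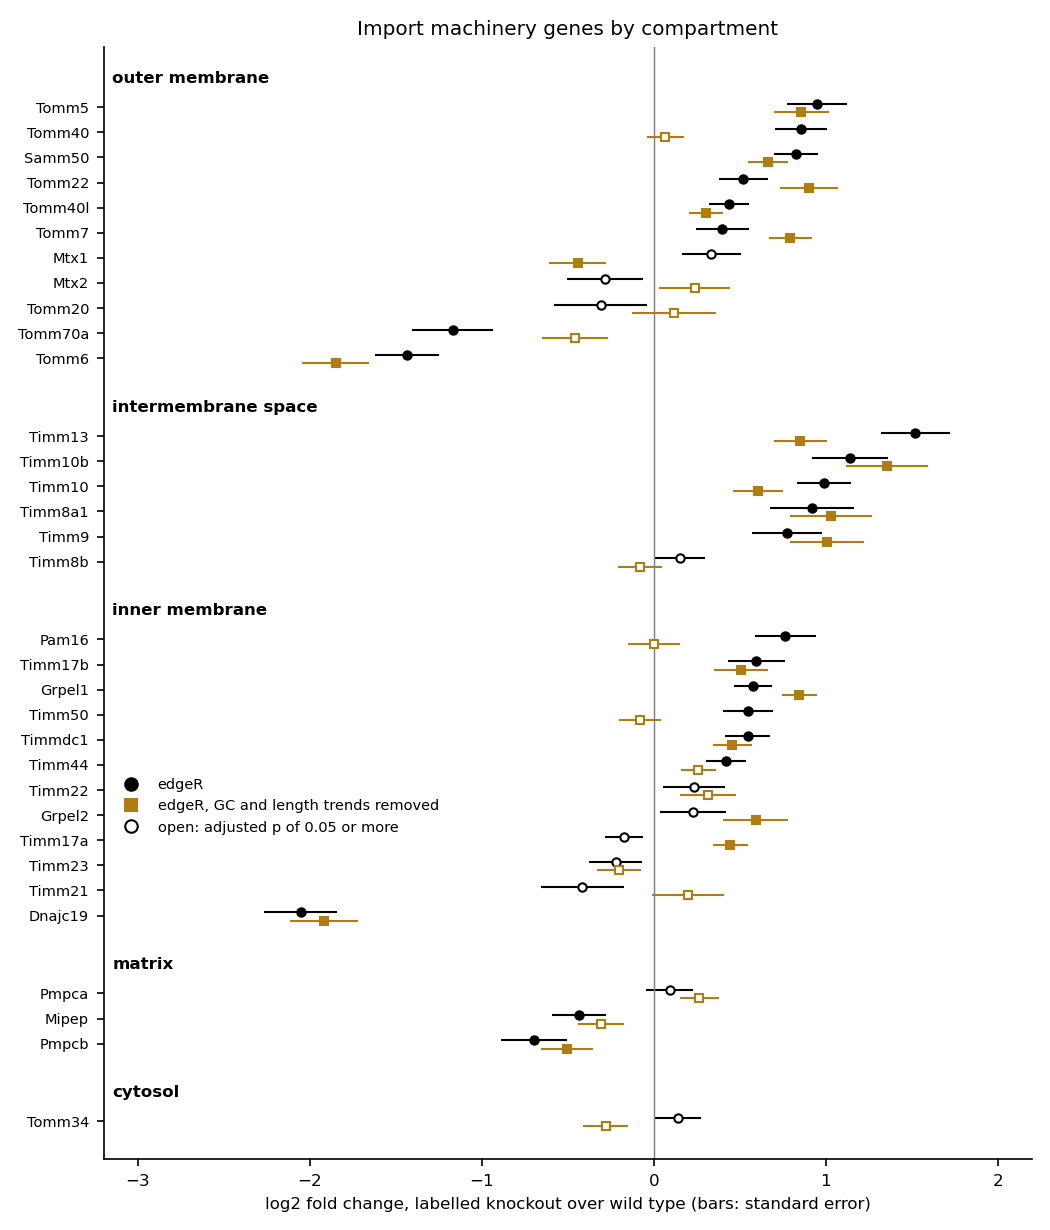
Log2 fold change of KO over WT (horizontal axis) for the 33 import genes tested, grouped by compartment, with standard errors. Circles are the edgeR fit, squares the fit with GC and length trends removed, and open symbols mark an adjusted p of 0.05 or more; 5 of 6 intermembrane space genes lie to the right in both fits, and Dnajc19 and Tomm6 lie farthest to the left.

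Stretches of the promoters of 6 import genes are shown because these genes moved in different directions and carry different letters upstream. They were chosen after their values were seen. They come from the 250 bases before the RefSeq transcription start on GRCm38.p6, run 5′ to 3′, and have any base left out that lies in an annotated exon or inside the RefSeq span of the gene itself (0 to 17 bases of the 250, and 115 for Timmdc1, whose span begins farther upstream). Dnajc19 (chr3:34081355-34081604, minus strand) and Tomm70a (chr16:57121464-57121702, plus strand) were lower in KO hearts. Timm13 (chr10:80900970-80901202, minus strand), Samm50 (chr15:84191990-84192239, plus strand), Tomm22 (chr15:79670618-79670860, plus strand) and Timmdc1 (chr16:38522779-38522913, minus strand) were higher. Capitals mark 3 motifs read on either strand, the ETS core CCGGAAG, the GC box GGGCGG and CCAAT.
Dnajc19: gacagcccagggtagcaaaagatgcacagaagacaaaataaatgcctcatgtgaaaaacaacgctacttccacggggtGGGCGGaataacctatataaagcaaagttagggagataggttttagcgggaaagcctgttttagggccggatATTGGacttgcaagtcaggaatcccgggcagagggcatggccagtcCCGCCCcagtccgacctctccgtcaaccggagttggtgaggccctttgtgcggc
Tomm70a: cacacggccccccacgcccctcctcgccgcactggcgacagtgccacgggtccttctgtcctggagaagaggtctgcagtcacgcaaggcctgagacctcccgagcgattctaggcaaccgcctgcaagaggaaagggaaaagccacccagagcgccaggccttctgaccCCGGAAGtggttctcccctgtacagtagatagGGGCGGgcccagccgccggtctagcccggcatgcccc
Timm13: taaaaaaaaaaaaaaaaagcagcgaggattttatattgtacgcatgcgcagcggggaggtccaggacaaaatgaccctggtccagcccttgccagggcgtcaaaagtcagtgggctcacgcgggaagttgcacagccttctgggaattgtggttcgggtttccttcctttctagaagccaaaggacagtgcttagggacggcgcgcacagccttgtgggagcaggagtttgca
Samm50: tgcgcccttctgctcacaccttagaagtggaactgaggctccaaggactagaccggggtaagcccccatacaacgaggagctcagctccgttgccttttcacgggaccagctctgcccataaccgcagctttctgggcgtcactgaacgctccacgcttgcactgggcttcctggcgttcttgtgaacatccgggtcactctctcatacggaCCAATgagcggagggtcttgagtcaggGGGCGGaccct
Tomm22: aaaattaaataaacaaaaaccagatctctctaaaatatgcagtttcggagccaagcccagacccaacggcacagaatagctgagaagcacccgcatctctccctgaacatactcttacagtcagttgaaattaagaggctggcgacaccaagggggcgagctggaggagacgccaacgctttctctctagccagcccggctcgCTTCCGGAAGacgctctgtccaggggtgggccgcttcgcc
Timmdc1: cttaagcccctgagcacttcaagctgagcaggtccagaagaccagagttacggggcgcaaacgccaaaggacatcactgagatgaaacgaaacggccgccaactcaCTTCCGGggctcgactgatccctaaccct

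The 250 bases upstream of the start were searched for 31 of the 35 genes, without Grpel2, Timm21, Tomm7 and Tomm40l. The search skipped import genes on 1 chromosome, which the comparison windows below keep. CCGGAAG, the core bound by ETS factors such as GABP (also named NRF2), stood in 13 of 31 (41.9%), against 6.91% of 32851 mouse promoter windows of the same length and 13.6% of the 9856 windows of genes tested here. The GC box stood in 58.1% of the import genes and 59.9% of tested genes, and CCAAT in 35.5% and 36.1%. The NRF1 letters (GCGCA, any base, GCGC) were found upstream of 2 of them (6.45%, against 8.33% of tested genes), the ERR letters CAAGGTCA of 1 (3.23% against 0.944%), and the YY1 letters AAGATGGCG of 0 (1.19% of tested genes). No match of one motif overlapped a match of another. The ETS letters were present upstream of 4 of 15 genes that rose, 2 of 5 that fell and 6 of 9 that did not pass the test. The windows of 6 genes overlap the RefSeq span of their own gene, and 12 of 31 (38.7%) hold the ETS letters outside that span. In the stretches above, Timmdc1 holds 1 run of these letters and Tomm22 a single run that reads on both strands, while Timm13, Samm50 and Dnajc19 hold none. Tomm70a holds 1 run, and both Tomm70a and Timmdc1 have further matches in the bases left out. A match describes letters only and shows no binding.

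At the TOM complex 5 of 8 tested genes rose and 2, Tomm6 and Tomm70a, fell. Tomm6 encodes a small subunit that steadies the assembled pore (chr17:47686645-47688386). Its CPM was 41.0, 69.7, 69.6, 54.1 and 60.4 in WT hearts 1 to 5 and 21.4, 28.0, 21.4 and 15.2 in KO hearts 1 to 4. Every KO heart lay below every WT heart. The log2 fold change was -1.44 ± 0.19 (edgeR, adjusted p = 3.6e-05) and -1.85 corrected (adjusted p = 2.43e-05). By FPKM, which is per length, Tomm6 ranked 4 of the 35 genes in WT hearts and 14 in KO hearts. In the annotation 76.0% of its exon bases also belong to Gm21981, a gene on the same strand that has no entry of its own in the count table.

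Tomm70a, the receptor for carrier proteins that arrive bound to chaperones, had 24.8, 28.1, 31.7, 24.7 and 27.0 CPM in WT hearts and 19.4, 6.99, 8.85 and 12.6 in KO hearts, again without overlap. It fell in the edgeR fit (log2 fold change -1.17 ± 0.24, adjusted p = 8.62e-04). In the corrected fit the value was -0.46 and no longer passed (adjusted p = 0.076). Its transcript has the lowest GC content of the tested import genes, 40.7%. Tomm20, the receptor for presequences, was not called in either fit (-0.31, adjusted p = 0.354; corrected 0.12), and KO heart 4 had 8.45 CPM where the other KO hearts had 27.3 to 32.6.

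The small subunit Tomm5 rose, from 28.9, 15.96, 15.7, 30.3 and 25.3 CPM in WT hearts to 45.6, 45.0, 46.6 and 48.9 in KO hearts. The KO hearts lay close together and above each WT heart. Its log2 fold change was 0.95 ± 0.18 (edgeR, adjusted p = 4.49e-04) and 0.86 corrected, and by FPKM it went from rank 7 in WT to rank 1 in KO hearts. Tomm22, the central receptor that ties the pores together, rose by 0.52 (adjusted p = 0.0070) and by 0.90 corrected (adjusted p = 9.36e-04), and Tomm7, a subunit that loosens the assembly, rose by 0.40 and 0.79 on the same log2 scale. Tomm7 passed narrowly in the edgeR fit (adjusted p = 0.041). It lost the call when any of 6 single hearts was left out, with log2 fold changes of 0.33 to 0.51 over all 9 omissions.

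The pore protein Tomm40 read 36.4 to 52.7 CPM in WT and 71.4 to 103 in KO hearts and rose in the edgeR fit (0.86 ± 0.15, adjusted p = 3.43e-04). In the corrected fit its log2 fold change was 0.068 (adjusted p = 0.653), and its transcript has a GC content of 61.5%. With GC content and length taken from the longest transcripts instead, Tomm40 was at 0.50 and passed (edgeR, adjusted p = 0.0091). Its paralog Tomm40l rose by 0.44, and by 0.30 corrected (adjusted p = 0.028), but with the longest transcripts was at 0.25 (adjusted p = 0.061). Of the exon bases of Tomm40l, 64.3% also belong to Nr1i3 on the other strand, and Nr1i3 was assigned 0 to 10 reads per heart. The library does not keep strand, so reads of such overlapping genes cannot be assigned by strand, and their part in the value of Tomm40l was not tested. Genes on the other strand also share exon bases with Mtx1 (21.2% with Gm43737), Pmpca (20.4% with Inpp5e) and Tomm6 (19.4% with Tomm6os). The same holds for Pam16 (18.7% with Glis2), Timm8b (15.6% with Nkapd1) and Grpel1 (11.6% with Tada2b), and was not tested either.

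In the SAM complex 1 of 3 genes, the barrel subunit, rose. Samm50, the channel that inserts barrel proteins such as Tomm40 itself (chr15:84192240-84216083), had 88.7, 68.0, 58.3, 78.2 and 66.2 CPM in WT hearts and 126, 134, 123 and 129.6 in KO hearts. No KO heart reached down to the WT range. The log2 fold change was 0.83 ± 0.13 (edgeR, adjusted p = 1.3e-04) and 0.66 corrected (adjusted p = 5.69e-04). The metaxins, its partners on the cytosolic side, were not called in the edgeR fit. Mtx1 had a log2 fold change of 0.34 (adjusted p = 0.110) and Mtx2 one of -0.29 (adjusted p = 0.290). In the corrected fit Mtx1 was lower (-0.44, adjusted p = 0.047) and Mtx2 was at 0.24 (adjusted p = 0.392), so the sign of both turned with the correction.

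Of the 6 small TIM chaperones tested, all but Timm8b rose. Timm13 pairs with Timm8 proteins to carry the precursor of Timm23 and some others across the intermembrane space (chr10:80899450-80900969). Its CPM was 20.7, 10.1, 13.6, 10.5 and 13.2 in WT hearts and 33.3, 37.8, 38.3 and 51.9 in KO hearts. The lowest KO heart was above the highest WT heart. This was a 2.87-fold rise, with a log2 fold change of 1.52 ± 0.20 (edgeR, adjusted p = 3.73e-05) and 0.85 corrected (adjusted p = 7.17e-04). Its transcript is GC-rich, at 58.2%, and the corrected value is the smaller.

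Timm10b, a small TIM that docks the chaperones to the TIM22 complex (chr7:105640445-105655748), had 6.59, 6.24, 5.33, 3.72 and 7.66 CPM in WT hearts. In KO hearts it had 11.9, 11.3, 10.9 and 18.2 CPM. The groups did not overlap, and KO heart 4 stood above the other KO hearts. The log2 fold change was 1.14 ± 0.22 (edgeR, adjusted p = 6.33e-04) and 1.36 corrected (adjusted p = 6.48e-04). The depth behind it is small, with 18 reads in each of WT hearts 2 and 3. Of the exon bases of Timm10b, 10.5% also belong to Gm45799, a gene on the same strand with no entry in the count table.

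Timm9 and Timm10 form the hexamer that carries metabolite carriers to the inner membrane. Timm10 had 11.4 to 17.8 CPM in WT and 23.7 to 35.6 in KO hearts, without overlap, and rose by 0.99 ± 0.16 (edgeR, adjusted p = 1.56e-04; corrected 0.60, adjusted p = 0.0048). Timm9 had 2.95 to 5.55 CPM in WT and 5.23 to 7.33 in KO hearts, where the highest WT heart lay inside the KO range. It rose by 0.77 on the log2 scale (adjusted p = 0.0053) and by 1.01 corrected. Timm8a1, the mouse gene for the protein lost in human deafness-dystonia syndrome, had 1.39 to 3.41 and 4.09 to 5.81 CPM and rose by 0.92 (adjusted p = 0.0056; corrected 1.03). A processed pseudogene, Gm9797, is identical to its transcript over 612 bases. Timm8b, the other partner of Timm13, had 19.5 to 30.6 CPM in WT and 27.4 to 35.9 in KO hearts, with a log2 fold change of 0.15 ± 0.15 (adjusted p = 0.396; corrected -0.08). It was the most abundant small TIM per length, at a median of 72.1 FPKM in WT hearts.

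**Figure D2:**
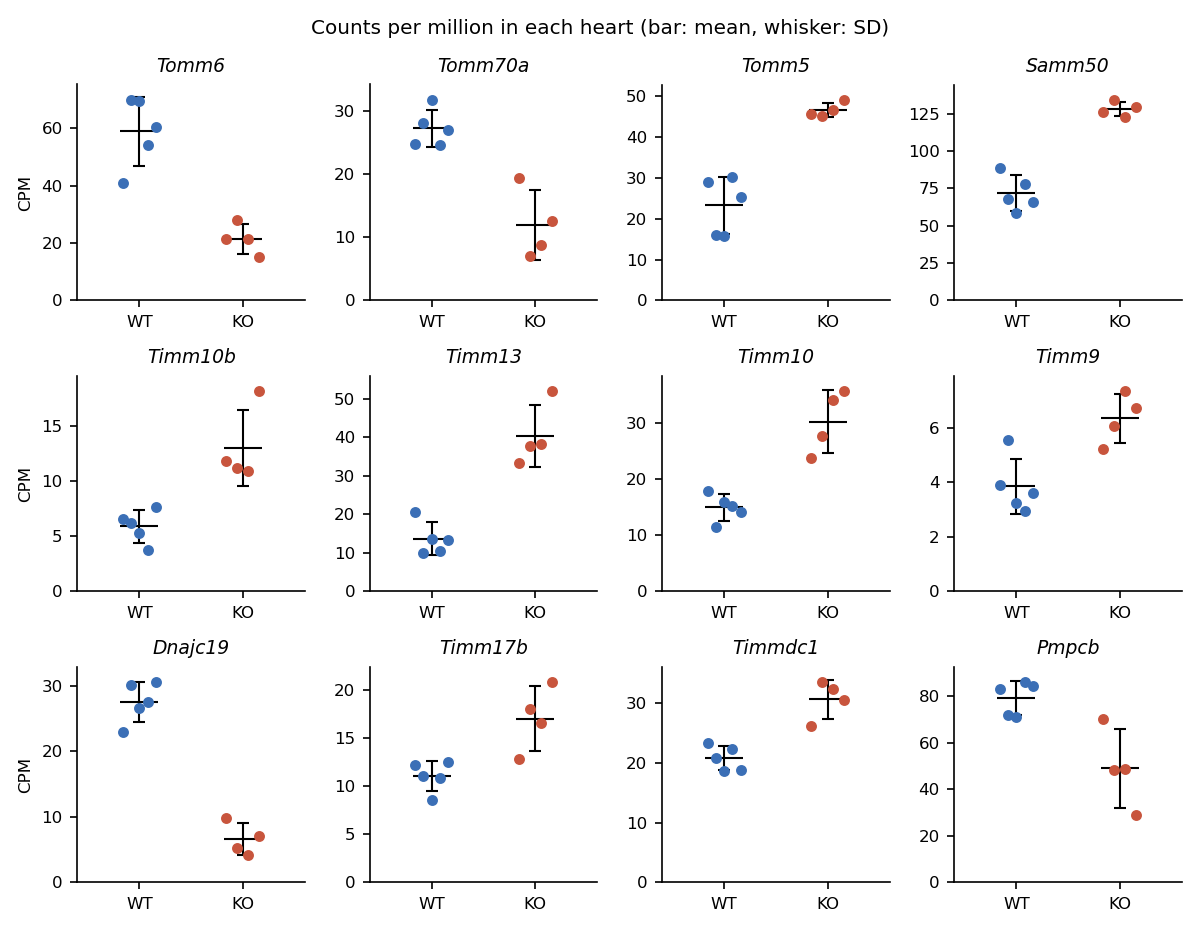
CPM of 12 import genes in each WT (blue) and KO (red) heart, with the mean (bar) and SD (whisker). Tomm6, Tomm70a, Dnajc19 and Pmpcb lie lower in the KO hearts and the other 8 lie higher, with overlap between groups only for Timm9.

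At the inner membrane the TIM22 complex, which inserts carriers, was represented among the genes chosen by name by its channel Timm22 alone (chr11:76406925-76416313). Agk and 1810026J23Rik, also genes of this complex, are among the other factors given below. Its CPM was 14.1, 13.2, 8.88, 10.1 and 8.47 in WT hearts and 15.2, 13.3, 12.5 and 10.7 in KO hearts, with overlap. The log2 fold change was 0.23 ± 0.18 (edgeR, adjusted p = 0.287; corrected 0.31, adjusted p = 0.148). The deposited FPKM values gave another picture, with a called rise of 0.93 on log2(FPKM + 1) after centring each heart on its median gene (limma, adjusted p = 0.0063). The counts do not show that rise.

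Among the genes of the TIM23 complex, which passes proteins with a presequence, only Timm17b was called in both fits. Timm17b is an X-linked channel subunit (chrX:7899336-7907652). It had 12.1, 11.1, 8.59, 10.9 and 12.5 CPM in WT hearts and 12.8, 18.01, 16.5 and 20.76 in KO hearts. The groups did not overlap, but KO heart 1 lay just above the highest WT heart. The log2 fold change was 0.60 ± 0.16 (edgeR, adjusted p = 0.0074) and 0.51 corrected (adjusted p = 0.021). Its paralog Timm17a, far more abundant at a median of 65.6 against 6.63 FPKM in WT hearts, was not called (-0.18, adjusted p = 0.193) but was higher in the corrected fit (0.44, adjusted p = 0.0036). The receptor Timm50 rose in the edgeR fit (0.55, adjusted p = 0.0061), and was at -0.08 in the corrected one (adjusted p = 0.643). Its transcript has a GC content of 58.3%.

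The channel Timm23 was the most abundant import gene per length in WT hearts, at a median of 85.4 FPKM. It read 84.6 to 131 CPM in WT and 76.9 to 113 in KO hearts, with a log2 fold change of -0.22 ± 0.15 (edgeR, adjusted p = 0.240; corrected -0.20). Without WT hearts 2 and 3 the value was -0.39 and passed the threshold. A near-identical gene, Gm10273, matches 99.9% of 1121 bases of its transcript, and the sources used here do not say how reads of such copies were counted. Timm21, which links the TIM23 complex to TOM and the respiratory chain, was at -0.41 (adjusted p = 0.161; corrected 0.20), with 4.29 CPM in KO heart 4 against 11.2 to 13.3 in the other KO hearts.

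The import motor held the largest fall of the 33 genes in both fits. Dnajc19, the J protein that stimulates mitochondrial Hsp70 and whose human loss causes a dilated cardiomyopathy with ataxia, lies at chr3:34057280-34081354. It had 22.9, 30.2, 26.7, 27.5 and 30.5 CPM in WT hearts and 9.79, 5.24, 4.20 and 7.09 in KO hearts. The highest KO heart was less than the lowest WT heart. The level in WT hearts was 4.15 times that in KO hearts, with a log2 fold change of -2.05 ± 0.21 (edgeR, adjusted p = 7.98e-06) and -1.92 corrected (adjusted p = 2.08e-05). With the longest transcripts the corrected value was -1.43, and Tomm6 fell further, at -2.02. Dnajc19 ranked 5 of 35 per length in WT hearts and 21 in KO hearts. Of its exon bases 4.42% overlap another gene, Fxr1, on the other strand. A processed pseudogene with no entry in the count table, Dnajc19-ps, matches 98.9% of 281 bases of its transcript.

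None of the other 4 motor genes was called lower. Pam16, the J-like partner that holds Dnajc19 and its relatives in check, rose in the edgeR fit (0.77, adjusted p = 0.0024) and was at -0.0007 in the corrected one (adjusted p = 0.998). With the longest transcripts the corrected value of Pam16 was 0.54 and passed (adjusted p = 0.015). Timm44, the anchor of Hsp70 at the channel, rose by 0.42 (adjusted p = 0.0069) and was at 0.26 corrected (adjusted p = 0.061). The nucleotide exchange factor Grpel1 rose in both fits, from 41.6 to 53.3 CPM in WT to 71.5 to 75.7 in KO hearts (0.58, adjusted p = 6.76e-04; corrected 0.85, adjusted p = 4.6e-05). Its paralog Grpel2 was much lower per length, at 1.56 against 11.9 FPKM in WT hearts, and was called only in the corrected fit (0.23, adjusted p = 0.339; corrected 0.59, adjusted p = 0.023).

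Timmdc1 carries a TIM name but assembles respiratory complex I at the inner membrane (chr16:38497843-38522778). Its CPM was 23.3, 20.81, 18.7, 22.3 and 18.8 in WT hearts and 26.1, 33.4, 32.3 and 30.6 in KO hearts. The groups did not overlap. It rose by 0.55 ± 0.13 on the log2 scale (edgeR, adjusted p = 0.0027) and by 0.46 corrected (adjusted p = 0.0061).

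In the matrix, where the targeting sequence is cut off, Pmpcb fell. It encodes the catalytic subunit of the processing peptidase (chr5:21737160-21757152). Its CPM was 83.0, 71.8, 71.1, 85.9 and 84.3 in WT hearts and 70.3, 48.1, 48.6 and 28.9 in KO hearts. The groups did not overlap, although KO heart 1 lay just under WT heart 3. The log2 fold change was -0.70 ± 0.19 (edgeR, adjusted p = 0.0067) and -0.50 corrected (adjusted p = 0.018). With the longest transcripts the corrected value of Pmpcb was -0.28 and did not pass (adjusted p = 0.155). Pmpca, its substrate-binding partner, had 54.5 to 75.2 CPM in WT and 54.5 to 74.1 in KO hearts (0.09, adjusted p = 0.592; corrected 0.27). Mipep, which trims a further octapeptide from some proteins, fell narrowly in the edgeR fit (-0.44, adjusted p = 0.029), was not called in the corrected one (-0.31, adjusted p = 0.079), and lost the call when any of 5 single hearts was left out. Tomm34, a cytosolic co-chaperone, had 16.95, 22.2, 15.4, 19.5 and 19.0 CPM in WT hearts and 18.8, 22.8, 21.0 and 19.0 in KO hearts. These overlapped (0.14 ± 0.14, adjusted p = 0.413; corrected -0.28, adjusted p = 0.109).

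Within each heart the import genes also made up their total in other proportions, a measure that needs no scaling between hearts. The intermembrane space genes took 13.8% to 15.8% of the summed FPKM of the tested import genes in WT hearts and 18.8% to 22.3% in KO hearts. The outer membrane genes took 31.2% to 33.6% and 34.1% to 37.4%. In the opposite direction, the inner membrane genes, with Grpel1 and Grpel2 among them, took 41.2% to 43.0% in WT and 35.3% to 38.7% in KO hearts. The 3 matrix peptidase genes took 9.27% to 9.95% in WT and 4.25% to 7.67% in KO hearts. None of these 4 shares overlapped between the groups. They are not independent of each other, since they sum with Tomm34 to the whole, and they are not corrected for GC content. In summed CPM the intermembrane space genes ran from 60.1 to 82.7 in WT and from 114 to 146 in KO hearts. The outer membrane genes ran from 343 to 395 in WT and from 456 to 470 in KO hearts, also without overlap. The inner membrane (354 to 453 and 426 to 467) and matrix genes (159 to 199 and 103 to 178) overlapped.

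**Figure D3:**
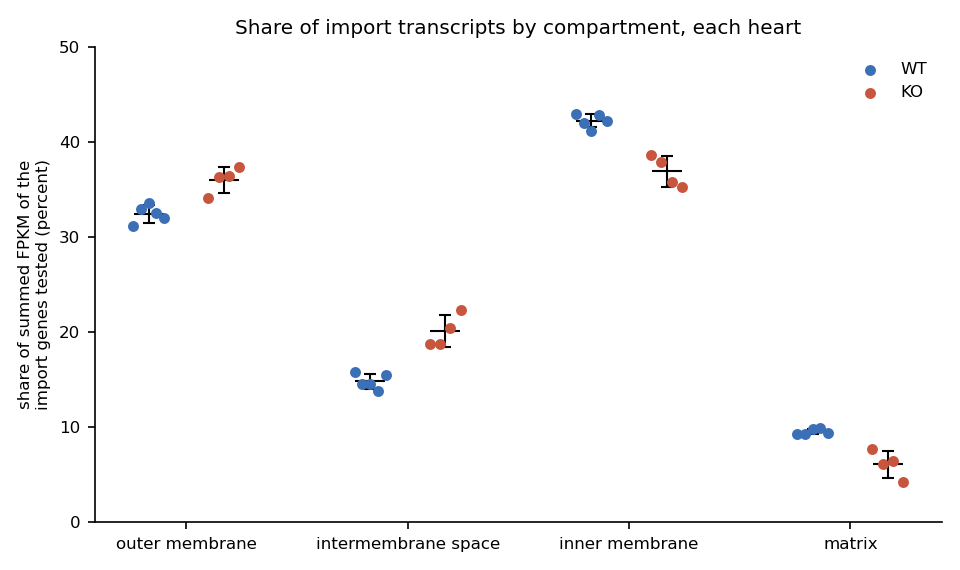
Share of the summed FPKM of the tested import genes (vertical axis, percent) held by each compartment in each WT (blue) and KO (red) heart, with mean and SD. KO hearts lie above WT hearts for the outer membrane and intermembrane space and below them for the inner membrane and matrix. The matrix here is the 3 peptidase genes, and Grpel1 and Grpel2 are counted with the inner membrane.

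Ratios of partner genes within a heart were compared for 9 pairs by two-sided exact permutation tests over the 126 splits of the hearts, with p adjusted over the pairs. Timm8b to Timm13, the subunits of 1 chaperone complex, fell from a geometric mean ratio of 2.01 to 0.757 (log2 difference -1.41, exact p = 0.0079, adjusted p = 0.018), and the ratios did not overlap. Pmpca to Pmpcb, the subunits of the processing peptidase, rose from 0.805 to 1.46 (0.86, exact p = 0.0079, adjusted p = 0.018), also without overlap. Both passed in the corrected fit, at -0.97 (exact p = 0.016, adjusted p = 0.048) and 0.81 (exact p = 0.0079, adjusted p = 0.036). No split of these hearts can give an exact p under 0.0079.

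The paralogs Timm17a and Timm17b had a geometric mean ratio of 5.57 in WT and 3.25 in KO hearts (-0.78, exact p = 0.0079, adjusted p = 0.018), and the ratio of channel to receptor, Timm23 to Timm50, was 6.31 and 3.63 (-0.80, exact p = 0.0079, adjusted p = 0.018). Neither passed once GC and length trends were removed, at -0.06 (exact p = 0.698) and -0.14 (exact p = 0.183). Timm44 to Grpel1 did the reverse, at -0.16 (exact p = 0.048, adjusted p = 0.086) and -0.59 corrected (exact p = 0.0079, adjusted p = 0.036). Grpel1 to Grpel2 (0.27, exact p = 0.151), Tomm40 to Tomm40l (0.42, exact p = 0.079), Mtx1 to Mtx2 (0.64, exact p = 0.079) and Timm9 to Timm10 (-0.29, exact p = 0.429) did not pass. When any WT heart was left out, the smallest p that the design allows rose and none of the 4 called ratios passed the adjusted threshold, while each kept its direction.

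**Figure D4:**
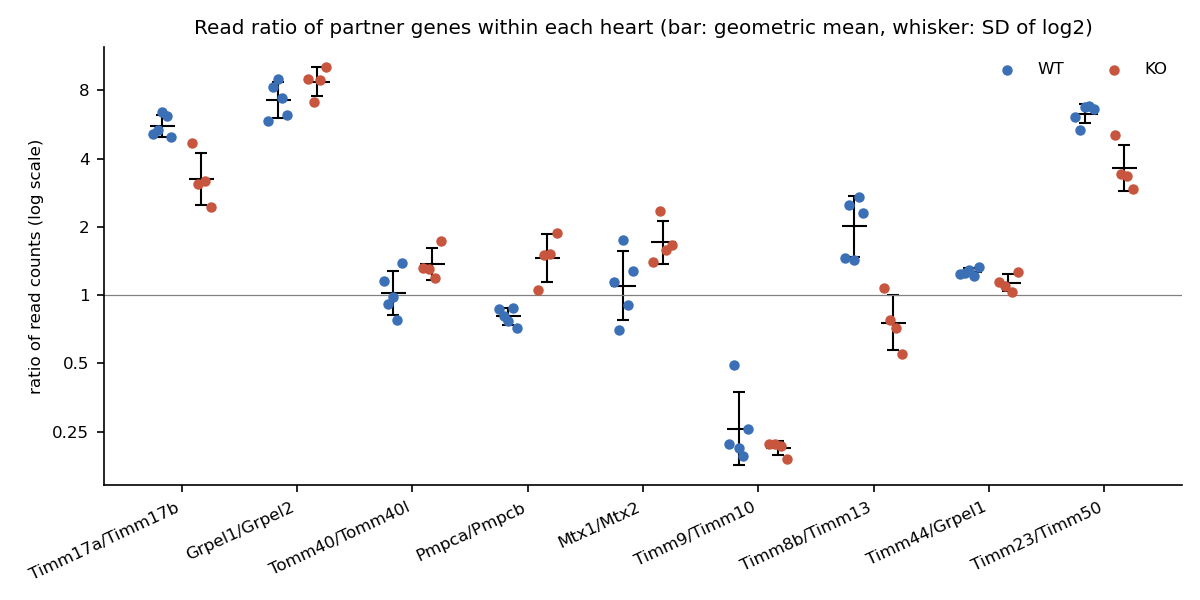
Ratio of read counts of 9 gene pairs within each WT (blue) and KO (red) heart, on a log axis, with the geometric mean and the SD of log2 values. The ratios of Timm17a to Timm17b, Pmpca to Pmpcb, Timm8b to Timm13 and Timm23 to Timm50 do not overlap between the groups.

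**Figure D5:**
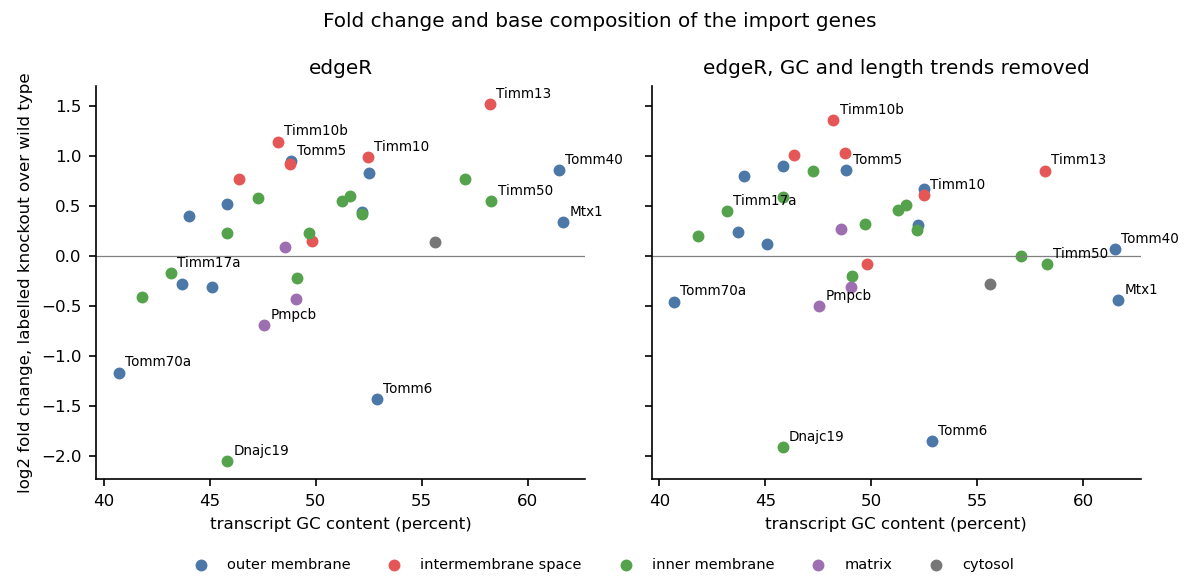
Log2 fold change of KO over WT (vertical axis) against transcript GC content (horizontal axis) for the 33 tested import genes, as fitted by edgeR (left) and with GC and length trends removed (right), coloured by compartment. Tomm40, Mtx1 and Timm50 at the GC-rich end move down on the right and Tomm70a and Timm17a at the GC-poor end move up, while Dnajc19 and Tomm6 stay low.

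KO heart 4 had the highest correlation of its expression, relative to the middle of the groups, with GC content (rho 0.64 across genes, 0.21 to 0.57 in the other KO hearts, -0.61 to -0.39 in WT hearts). Among the 33 import genes it had the lowest value of all hearts in 7 and the highest in 8. WT heart 3 had the lowest value in 11 and WT heart 2 in 8. Without KO heart 4, 17 import genes were called higher and 4 lower, where 45.9% of all genes tested were called. The part of base composition and of this heart in single results was not tested beyond the values given. Over all 26 alternative settings (normalisation, filter, other tools, FPKM, corrections, omitted hearts and a replicate term), 9 of the 22 called genes kept direction and call throughout. They were Samm50, Tomm5, Tomm22, Timm10, Timm10b, Timm13 and Grpel1, all higher, and Tomm6 and Dnajc19, both lower. The same count was not made over all genes tested, so 9 of 22 has no background to be read against.

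Other factors of the pathway were counted the same way. Of 15 further import factors 6 rose and 3 fell (median log2 fold change -0.16), and 4 rose and 1 fell in the corrected fit. Of all genes tested 51.4% were called, and 38.1% in the corrected fit. Mtch1, an outer membrane insertase, rose by 1.24 (adjusted p = 2.7e-05; corrected 0.50), Dnajc11, a SAM-associated J protein, by 0.82 (adjusted p = 1.4e-04; corrected 0.54) and Immp1l, an inner membrane peptidase, by 1.24 (adjusted p = 2.5e-04; corrected 1.87). Hspa9, the Hsp70 of the motor, named after its values were seen, fell by 0.59 on the log2 scale (adjusted p = 0.012) and was at -0.22, no longer called, in the corrected fit (adjusted p = 0.22). Its CPM was 466 to 523 in WT hearts and 478, 323, 332 and 210.4 in KO hearts 1 to 4, so KO heart 1 lay inside the WT range. The other factors that fell, also named after their values were seen, were Mtch2 and 1810026J23Rik. Mtch2 was at -0.45 (adjusted p = 0.0055; corrected -0.08). For 1810026J23Rik, a gene of the TIM22 complex, the value was -0.44 (adjusted p = 0.016, corrected -0.49, adjusted p = 0.0073), without overlap between the groups. Agk, also of that complex, was not called (-0.31, adjusted p = 0.104, corrected -0.11). Of 7 genes of the MICOS complex, which shapes the cristae and binds SAM, 1 rose and 3 fell, and 2 rose and 3 fell in the corrected fit. Apool fell by 2.02 (adjusted p = 4.2e-05; corrected -1.40) and Immt, the core of the complex, by 0.77 (adjusted p = 0.0020; corrected -0.65), while 2410015M20Rik rose by 0.88 (adjusted p = 1.7e-04; corrected 0.49). Pink1, the kinase that import normally removes from healthy mitochondria and that acts upstream of Parkin, was at 280 to 380 CPM in WT and 432 to 595 in KO hearts. It rose in the edgeR fit (0.67, adjusted p = 7.6e-04) and was at 0.03 in the corrected one (adjusted p = 0.86). Parl, the protease that cuts imported PINK1, was not called (-0.09, adjusted p = 0.80; corrected -0.08).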

How the data were processed

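Poly(A) RNA of 9 mouse hearts (5 WT, 4 KO) was sequenced single-end without strand. The authors deposited read counts per gene, used as deposited, and FPKM values. Per the submitters' processing notes Cufflinks 2.1, HTSeq, TopHat2 2.0.10, TopHat, Bowtie2, edgeR and DESeq were used with genome build mm10; for their roles, the annotation and the strand setting, the sources used here say nothing. The FPKM values are not scaled across hearts here, and FPKM was used for levels per length and shares.

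Counts were tested in R 4.3.3 with edgeR 4.0.16 (TMM, default filter by group with at least 10 reads and 15 in total, quasi-likelihood F test, Benjamini-Hochberg over all genes tested, threshold 0.05). CPM uses the TMM-scaled library size, and standard errors come from the F statistic. The corrected fit used offsets from lowess curves (span 0.3) of each heart's deviations against GC content and then length of the principal transcript in GENCODE vM21, available for 99.2% of tested genes. Partner ratios used counts + 0.5. Alternatives were upper-quartile and RLE factors, a filter at 1 CPM on average or none, limma-voom 3.58.1 with quality weights, DESeq2 1.42.0, the replicate number as a block, omitted hearts, omission of mitochondrially encoded genes, and limma-trend on log2(FPKM + 1) or log2(FPKM + 0.1) with a mean of at least 0.5 or no filter. On log2(FPKM + 1) the change of low genes is understated. The correction with the longest transcripts, median-centred FPKM, and the correction without the shallowest WT hearts were added after seeing the data. Only the edgeR fit, with and without the correction, was run on simulated counts. These held far fewer changed genes than were called in the hearts.

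Genes, lists and tests were chosen with earlier results of these data known. Values in every heart are given, for each role, for genes called alike in both fits with an absolute log2 fold change of at least 1, or else for the gene with the largest one. Tomm70a and Tomm5 were added after their values were seen. From other lists, up to 3 called genes with the smallest p are named, besides Hspa9, Mtch2, 1810026J23Rik and Agk. The labels give no mouse identities beyond 1 heart per library, so p-values measure the spread between these samples. No 2 hearts held identical values. The count of the targeted gene is not reported here.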

Additional observations from a re-analysis of the deposited data

Results flagged for a closer look

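Of 92 sets of values within a group, covering the CPM of each tested import gene, the ratio of each pair and other measures per heart, 4 had a heart far from the others, and chance gives such a heart in about 5% of sets. In 3 of them it was KO heart 4. Its Pmpca level was 54.5 CPM where the other KO hearts had 72.1 to 74.1, its Timm10b level was 18.2 CPM where the next KO heart had 11.9, and its Tomm40 level was 103 CPM where the next had 75.0. In the fourth, WT heart 2 had a Timm9 to Timm10 read ratio of 0.493 where the next WT heart had 0.257, from 16 reads of Timm9 and 33 of Timm10.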

How the results depend on the processing

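RLE and upper-quartile factors, no filter, the 1 CPM filter, omission of mitochondrially encoded genes and Rn45s, and DESeq2 each left all 22 calls among the import genes in place, with 17 higher and 5 lower. With limma-voom Mtx2 was also called lower (-0.53). Leaving out single hearts gave 16 to 17 higher and 4 to 5 lower, where 44.2% to 53.4% of all genes tested were called. The compartment medians were then 0.33 to 0.46 (outer membrane), 0.85 to 1.11 (intermembrane space), 0.28 to 0.40 (inner membrane) and -0.60 to -0.32 (matrix). Replicate numbers did not pair the hearts (correlations of deviations of -0.26 to 0.04). With the replicate block 13 were higher and 4 lower (39.8% of all genes tested were called), and with the replicate block and the correction 12 and 3 (27.5%). Depth limits Timm9, Timm8a1, Grpel2 and Timm10b most, with 6 to 18 reads in WT hearts 2 and 3. FPKM values are not on a common scale. On log2(FPKM + 1) the median of all genes shifted by 0.44, so changes are relative to that.

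Signs turned mainly with the correction. With GC and length trends removed, the log2 fold changes were -0.44 for Mtx1, 0.24 for Mtx2, -0.00067 for Pam16, 0.44 for Timm17a, 0.20 for Timm21, -0.081 for Timm50, -0.079 for Timm8b, 0.12 for Tomm20 and -0.28 for Tomm34, and the outer membrane median was 0.24. With the longest transcripts they were -0.45 for Mtx1, 0.16 for Mtx2, 0.41 for Timm17a, 0.17 for Timm21, -0.093 for Timm50, -0.10 for Timm8b, 0.053 for Tomm20 and -0.32 for Tomm34, with an outer membrane median of 0.25. With the replicate block and the correction they were -0.39 for Mtx1, 0.29 for Mtx2, 0.45 for Timm17a, 0.11 for Timm21, -0.074 for Timm50 and -0.27 for Tomm34. With the correction and without the 2 shallowest WT hearts they were -0.55 for Mtx1, 0.11 for Mtx2, -0.12 for Pam16, 0.37 for Timm17a, 0.15 for Timm21, -0.18 for Timm50, -0.16 for Timm8b, 0.11 for Tomm20, -0.26 for Tomm34 and -0.020 for Tomm40, with an outer membrane median of 0.11. Without those hearts alone Pmpca was at -0.019. Unlike the corrected fit, the correction with the longest transcripts called Tomm40 (0.50), Pam16 (0.54) and Mipep (-0.44). It did not call Pmpcb (-0.28) or Tomm40l (0.25).

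On log2(FPKM + 1), with or without the filter, 2 import genes were called lower and all others called were higher. Over all genes 5961 of 12637 were called higher and 769 lower with the filter, and 6195 and 792 of 18680 without it. The compartment medians were 0.97, 1.40, 1.01 and 0.14 in the order above. Mipep (0.14), Mtx2 (0.30), Timm17a (0.41), Timm21 (0.061), Timm23 (0.38) and Tomm20 (0.13) turned positive. On log2(FPKM + 0.1), 2 were lower, where 5834 of all 12637 genes were called higher and 754 lower. The medians were 1.01, 1.595, 1.05 and 0.15, and the same genes were at 0.15, 0.34, 0.42, 0.053, 0.38 and 0.12. After median-centring the inner membrane median was 0.51. The cause of these shifts was not tested beyond the shift of all genes.

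Of the pair ratios (log2 differences), the correction gave -0.056 for Timm17a to Timm17b and -0.14 for Timm23 to Timm50, both no longer passing, -0.59 for Timm44 to Grpel1, now passing, and turned the sign of Tomm40 to Tomm40l (-0.23), Mtx1 to Mtx2 (-0.71) and Timm9 to Timm10 (0.33). As ratios of FPKM + 1, Grpel1 to Grpel2 passed at 0.53. Leaving out single hearts gave -0.95 to -0.64 for Timm17a to Timm17b, 0.73 to 1.01 for Pmpca to Pmpcb, -1.58 to -1.25 for Timm8b to Timm13, -0.96 to -0.70 for Timm23 to Timm50 and -0.21 to -0.12 for Timm44 to Grpel1. Timm8b to Timm13 also missed the threshold without KO heart 4, and Timm44 to Grpel1 passed without it. Without the 2 shallowest WT hearts the 4 called ratios were -0.73, 0.84, -1.47 and -0.84 (adjusted p = 0.103 each).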
